A study of Mus musculus with 6 samples.

Results

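The genes described here are those of the calcium, potassium, sodium and transient receptor potential (TRP) channels, with the calcium store sensors and the release channels of the endoplasmic reticulum. Members were chosen by symbol alone, as genes whose names start with Cacn, Kcn, Scn and a digit, Trpa, Trpc, Trpm, Trpv, Ryr, Itpr and a digit, Orai or Stim, without pseudogenes. Of the 18572 genes measured by a probe with a single gene symbol, 98 met this rule. RefSeq holds 175 symbols that meet it, and the other 77 were not analysed here. By ion and role the 98 were 14 calcium channel subunits, 52 potassium channel genes of which 1 is an antisense transcript, 10 sodium channel subunits, 13 TRP channels and 1 TRP-associated protein, 3 release channels, and 5 genes of store-operated calcium entry.

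The cells were NIT-1, a mouse line grown from pancreatic beta cell tumours of a transgenic mouse whose insulin promoter drives a viral oncogene. All cultures were kept in medium with fetal bovine serum, penicillin and streptomycin, seeded for 24 h, and then kept for another 24 h with either 0 or 4 µmol/L CdSO4. Each group had 3 arrays, 1 per culture, called biological replicates in the labels, which do not state if passages or days differed. The p-values below therefore measure the spread between these cultures. The design text gives oxidative damage as the reason for the treatment.

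In a beta cell, glucose metabolism raises ATP, closes the ATP-sensitive potassium channel and depolarises the membrane. Voltage-gated calcium channels then open, and the calcium that enters sets off the release of insulin, while voltage- and calcium-gated potassium channels bring the potential back. When the store of the endoplasmic reticulum runs low, STIM proteins in its membrane open ORAI channels at the cell surface, and several TRP channels add further cation currents. Cadmium is a classical blocker of voltage-gated calcium channels and can use pathways that carry calcium, zinc or iron to enter cells.

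All values are log2 signals as deposited, given as mean ± SD over 3 arrays, and a change is cadmium minus control on that scale. The 95th percentile of 5222 negative control probes, averaged over the arrays, was 6.18 and served as an approximate bound of background. A fold is given only where both group means lay above it, and as "at least" where 1 did. The dimmer group then counted on each array as the higher of its own signal and that array's 95th percentile of negative controls. Arrays of one group correlated at 0.9946 to 0.9972 and arrays of different groups at 0.9868 to 0.9906 over all genes. Mt2, a metallothionein that binds cadmium, rose from 7.94 ± 0.28 to 10.09 ± 0.11, a 4.45-fold difference, and all 4 genes of the metal response list rose. Of 15 listed beta cell markers 7 were measured. By limma 0 of the 7 passed and 1 had an unadjusted p under 0.05, beside 2276 and 5383 of all 18572 genes. All 7 lay below the bound in both groups, among them Ins2 at 5.27 ± 0.10 and 5.29 ± 0.04. The beta cell label could therefore not be checked on signals above background. Fewer cells of a kind and less RNA per cell cannot be told apart in such bulk samples.

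Cadmium went with higher signals of 7 channel genes and lower signals of 6, and the genes that fell included the store sensors Stim1 and Stim2, the cation channels Trpm7 and Trpc1, the L-type calcium channel Cacna1c and the potassium channel Kcnh2. Those that rose were Trpv5, Trpv6, Cacna1a, Kcnt1, Kcnh1, Kcne4 and Kcnj11. The 13 genes are 13.3% of the 98, and 12.3% of all 18572 genes passed the same test, limma with Benjamini-Hochberg adjustment at 0.05. By direction, 7.14% of the channel genes were higher against 6.45% of all genes, and 6.12% were lower against 5.8%. The share of channel genes that moved was thus close to that of genes at large, and the counts are no result about channels as a class. The control and cadmium arrays did not overlap in 40 channel genes, or 40.8%, against 35.9% of all genes. The median change was 0.058 for the channel genes and 0.044 for all genes.

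Array medians were slightly higher in the cadmium arrays, so the split into higher and lower depends on scaling. With each array centred on its median, 5 channel genes were higher, or 5.1% against 4.42% of all genes, and 6 were lower, or 6.12% against 8.09%. Over all genes, centring turned 1198 higher and 1078 lower calls into 821 and 1502. The 2 calls lost were Kcnj11 and Trpv6.

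**Figure D1:**
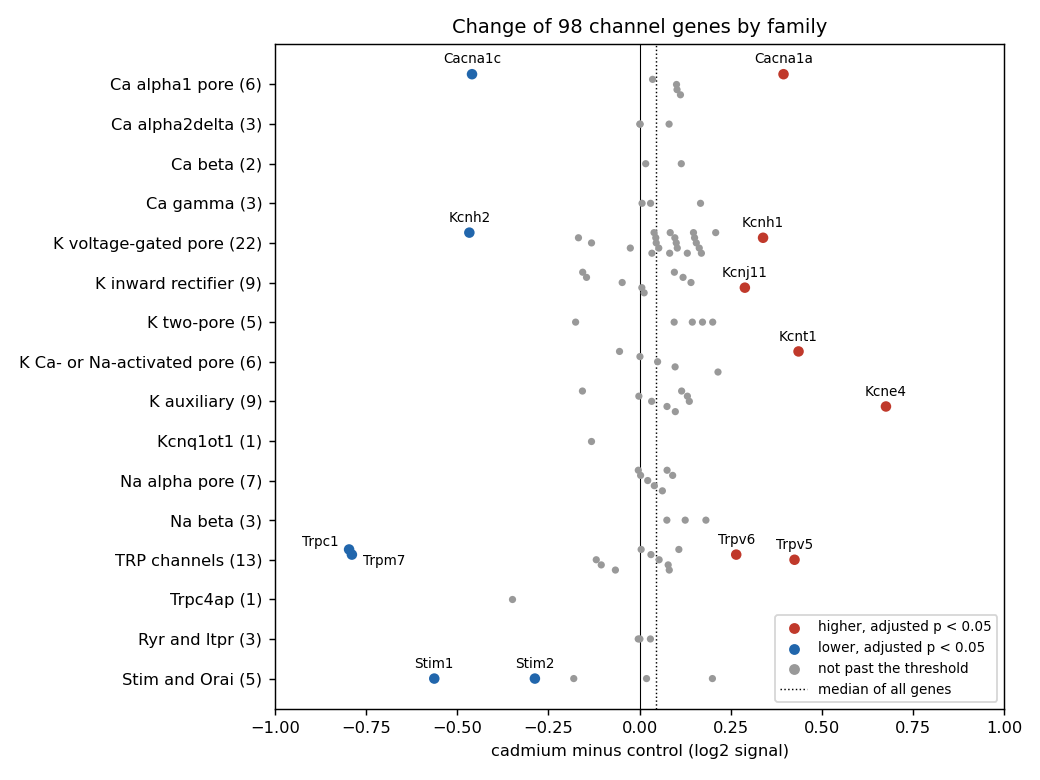
Change of each of the 98 channel genes (horizontal axis, cadmium minus control in log2 signal) by family (vertical axis, number of measured genes in brackets). Red points are higher and blue points lower at an adjusted p under 0.05, grey points did not pass, and the dotted line is the median of all genes at 0.04. Most families hold points close to that line with 1 or a few genes away from it, and Trpc1, Trpm7 and Stim1 lie farthest to the left.

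The signal level of the channel genes was low. In 90 of the 98, neither group mean exceeded the bound, in 5 one did, and in 3 both did. Of the 13 genes that passed the test 8 had no mean above the bound, which also held for 1523 of the 2276 genes that passed overall. All 6 lower channel genes lay at or above the median level of all genes, where 47 members were measured, and these are 12.8% of the 47 against 10.1% of all genes at that level. Below the median level, 2 of 51 members were higher, or 3.92% against 4.08% of all such genes.

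**Figure D2:**
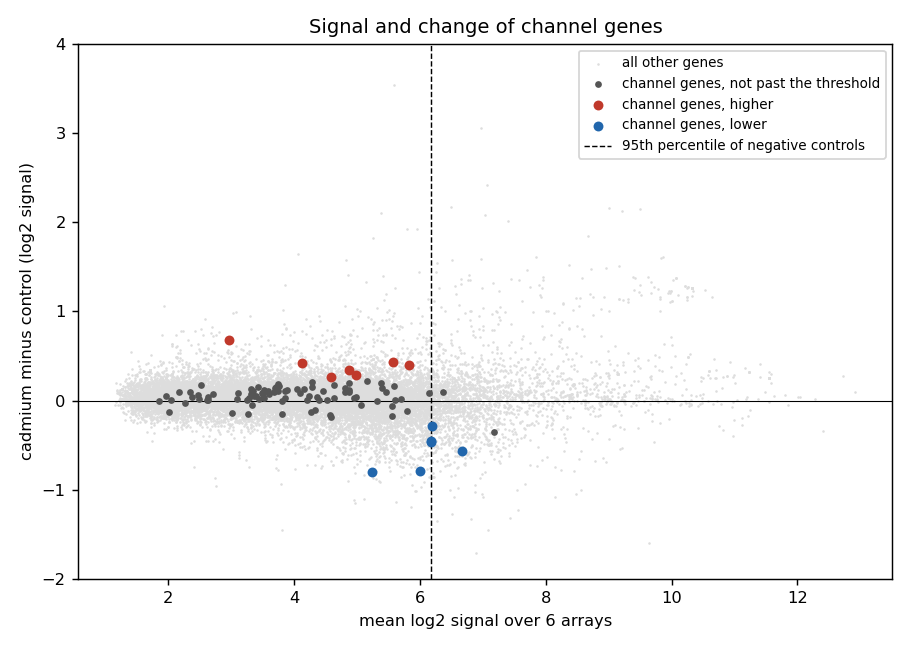
Mean log2 signal over 6 arrays (horizontal axis) and change with cadmium in log2 signal (vertical axis) of the channel genes, over all other genes in light grey. The dashed line is the background bound of 6.18. Only a few channel genes lie to its right, the 6 lower genes (blue) lie close to it apart from Stim1 above and Trpc1 below, and the 7 higher genes (red) all lie to its left.

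Some genes listed as markers of other cell types moved with the treatment as well, beside the 12.3% of all genes that passed. The cultures were of the NIT-1 line. Whether these genes mark other cells in that line, and whether the cultures held such cells, was not tested. Both measured genes of 6 neuronal and glial genes listed rose. Tubb3 went from 5.82 ± 0.15 to 6.68 ± 0.14 and Snap25 from 3.63 ± 0.06 to 3.86 ± 0.01, with Snap25 below the bound in both groups. The mean of the pair was 4.62 to 4.83 on control and 5.19 to 5.32 on cadmium arrays. Of 3 measured stromal, vessel and immune genes of 6 listed, 1 was lower and 2 did not pass. Col3a1, a collagen gene, fell 2.01-fold from 9.07 ± 0.13 to 8.06 ± 0.17 and lay above the bound in both groups. All 7 measured beta cell markers lay below it in both groups, as did Kdr and Ptprc. Kdr changed by -0.27 (limma adjusted p = 0.3893) and Ptprc by 0.06 (limma adjusted p = 0.4561). The mean of the 3 was 5.43 to 5.54 on control and 4.89 to 5.21 on cadmium arrays. One of 2 muscle genes (Acta1) and 1 of 3 exocrine genes (Cela2a) rose. By limma or at an unadjusted p under 0.05, 0 of 2 markers of other islet cells passed. The latter held for 5383 of all 18572 genes. The Snap25 call was lost with centred arrays (adjusted p = 0.0588) and without any one of the 6 arrays (0.0508 to 0.1052), as was that of Cela2a (0.1020 and 0.0633 to 0.1419). The Acta1 call was lost without control array 1 or 2 or cadmium array 2 or 3 (0.0540 to 0.0601), whereas those of Tubb3 and Col3a1 were kept each time. The part of any such cells in the changes of the channel genes was not tested.

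Stim1 and Stim2 are the single-pass sensors that read the calcium level inside the endoplasmic reticulum, and Orai1, Orai2 and Orai3 form the pores that they open. Stim1 read 6.94, 6.95 and 6.99 on the control arrays and 6.29, 6.46 and 6.43 on the cadmium arrays. The groups lay well apart, and the mean fell from 6.96 ± 0.03 to 6.39 ± 0.09, a 1.48-fold lower signal (change -0.56, SE 0.061, adjusted p = 0.0021). Stim2 read 6.27, 6.40 and 6.34 in control and 5.94, 6.12 and 6.09 in cadmium cultures. These groups did not overlap either, with a mean lower by at least 1.12-fold (change -0.29, SE 0.067, adjusted p = 0.0350). The Stim2 call was lost when any one of the 6 arrays was left out, at adjusted p from 0.0588 to 0.1216, whereas that of Stim1 was kept each time.

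None of the 3 Orai genes passed the limma test, and 1, Orai2, had an unadjusted p under 0.05. Of all 18572 genes 2276 passed and 5383 had such a p. Orai1, the main pore of this pathway, read 5.68 ± 0.04 and 5.70 ± 0.03, with a change of 0.02 and a 95% interval from -0.10 to 0.14. Orai2 changed by 0.20 (interval 0.01 to 0.39, adjusted p = 0.1473) and Orai3 by -0.18 (interval -0.39 to 0.03, adjusted p = 0.238), and in both the groups overlapped. All Orai means lay below the bound. The difference between sensors and pores was not tested.

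TRP channels are cation channels with varied gates, of which 13 were measured. Of these, 2 were higher, 2 were lower and 9 did not pass, beside 6.45% of all genes higher and 5.8% lower. The count over the family was not tested. Trpm7, a channel for magnesium, calcium and zinc whose protein also carries a kinase domain, read 6.38, 6.51 and 6.30 in control and 5.55, 5.62 and 5.65 in cadmium cultures. Every cadmium array lay below every control array, and the mean fell from 6.40 ± 0.11 to 5.61 ± 0.05, at least 1.17-fold (change -0.79, SE 0.068, adjusted p = 0.0015). This was the lowest adjusted p among the 98 genes. Trpc1, a non-selective channel of the canonical group that has been placed in store-operated entry, read 5.62, 5.85 and 5.42 against 4.78, 4.87 and 4.85. It had the most negative change of the 98 genes at -0.80 (SE 0.106, adjusted p = 0.0043), with both means below the bound and a wider spread among the controls.

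Trpv5 and Trpv6 are the calcium-selective channels of the vanilloid group, best known from kidney and gut, and both rose from low signals. Trpv5 read 3.89, 3.89 and 3.97 in control and 4.36, 4.37 and 4.30 in cadmium cultures, a change of 0.42 (SE 0.052, adjusted p = 0.0032). Trpv6 read 4.49, 4.51 and 4.37 against 4.64, 4.71 and 4.83, a change of 0.27 (SE 0.069, adjusted p = 0.0493). The arrays of the 2 groups did not overlap in either gene, although all means were below the bound. The Trpv6 call was lost without control array 1, 2 or 3 or cadmium array 2 or 3, at adjusted p up to 0.1343. These are similar genes that lie next to each other on chromosome 6 in RefSeq (GRCm38.p6), and whether their probes read each other's transcripts was not tested.

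Among the TRP channels that did not pass, Trpm4 and Trpm5, calcium-activated channels that depolarise beta cells, changed by -0.07 (interval -0.19 to 0.05) and 0.03 (interval -0.08 to 0.14). Trpa1, a sensor of reactive compounds, read 2.04 ± 0.03 and 2.04 ± 0.02. Trpc4ap meets the symbol rule but encodes a protein that binds TRPC channels and an E3 ubiquitin ligase, and is no channel. It read 7.26, 7.28 and 7.52 in control and 7.22, 6.89 and 6.89 in cadmium cultures, a 1.28-fold lower mean that missed the threshold (change -0.35, SE 0.112, adjusted p = 0.0888). It passed with array weights (adjusted p = 0.0357) and without cadmium array 1 (adjusted p = 0.0270).

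**Figure D3:**
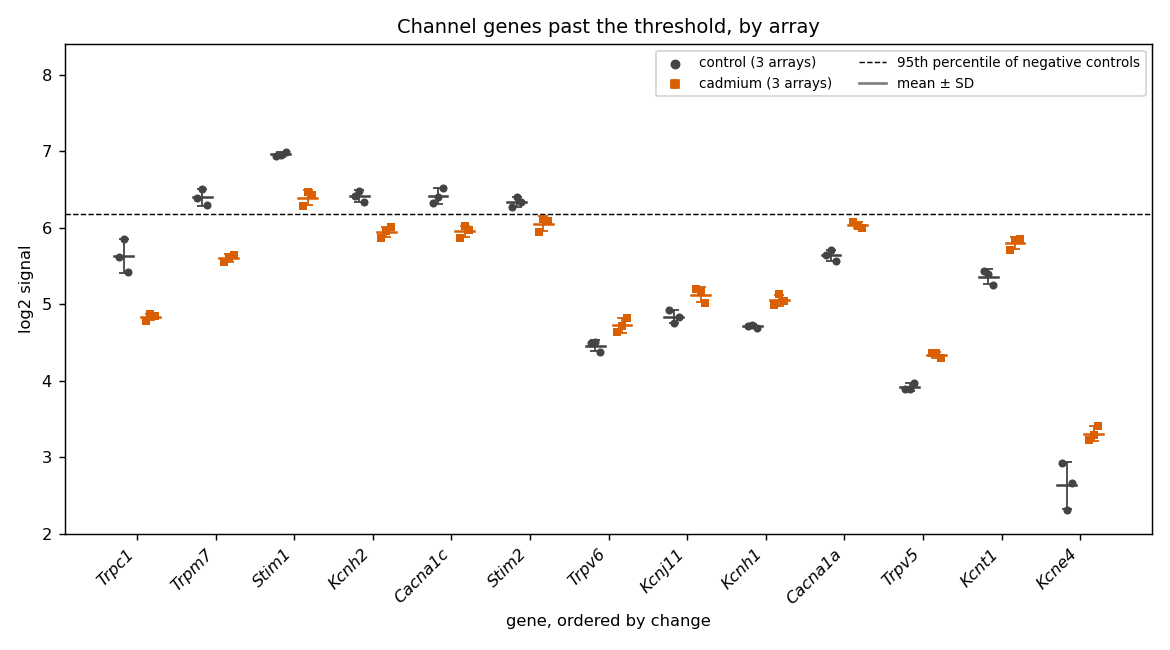
Log2 signal (vertical axis) on each array for the 13 channel genes that passed the test (horizontal axis, ordered by change), with control arrays as dark circles and cadmium arrays as orange squares; bars are the mean ± SD of 3 arrays. The dashed line is the background bound of 6.18. The arrays of the groups do not overlap in any of the 13 genes, which were chosen by the test on these same arrays. This adds no support, and in 35.9% of all genes the groups do not overlap. Only Stim1 lies above the bound on all 6 arrays.

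The starts of 6 of these genes are shown because 5 are genes of calcium or cation entry and of its store sensors that passed the test, and Kcnh1 for its metal response elements. They run from 250 bases before to 50 bases after the annotated start, 5′ to 3′ on the gene's strand, from RefSeq on GRCm38.p6, and lie at chr7:102267569-102267868, plus strand (Stim1), chr5:53998273-53998572, plus strand (Stim2), chr2:126876212-126876511, minus strand (Trpm7), chr9:95750299-95750598, minus strand (Trpc1), chr6:41680674-41680973, minus strand (Trpv5) and chr1:192190527-192190826, plus strand (Kcnh1). Capitals mark matches on either strand to the GC box GGGCGG, the E box CACGTG, the TATA box TATAAA and the metal response element TGCACNC or TGCGCNC, the core that the metal-sensing factor MTF1 binds. Overlapping matches run together. Trpv6 and Cacna1c, also genes of calcium entry that passed the test, have entries that are not shown. The Trpv6 window held 0 of these motifs. A Cacna1c window held 6 GC boxes, and its other windows held 0 of the motifs.
Stim1: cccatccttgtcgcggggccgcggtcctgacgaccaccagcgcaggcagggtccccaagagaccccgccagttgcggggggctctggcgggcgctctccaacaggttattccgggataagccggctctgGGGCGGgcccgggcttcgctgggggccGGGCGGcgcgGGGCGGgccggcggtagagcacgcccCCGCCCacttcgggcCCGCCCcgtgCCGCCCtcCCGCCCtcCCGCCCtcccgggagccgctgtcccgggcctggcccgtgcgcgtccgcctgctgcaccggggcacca
Stim2: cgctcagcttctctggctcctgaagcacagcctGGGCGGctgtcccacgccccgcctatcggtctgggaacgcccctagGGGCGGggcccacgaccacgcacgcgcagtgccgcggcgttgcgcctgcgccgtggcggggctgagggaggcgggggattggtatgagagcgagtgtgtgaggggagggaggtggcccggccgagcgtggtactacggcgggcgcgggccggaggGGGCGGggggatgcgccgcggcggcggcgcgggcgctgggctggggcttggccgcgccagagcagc
Trpm7: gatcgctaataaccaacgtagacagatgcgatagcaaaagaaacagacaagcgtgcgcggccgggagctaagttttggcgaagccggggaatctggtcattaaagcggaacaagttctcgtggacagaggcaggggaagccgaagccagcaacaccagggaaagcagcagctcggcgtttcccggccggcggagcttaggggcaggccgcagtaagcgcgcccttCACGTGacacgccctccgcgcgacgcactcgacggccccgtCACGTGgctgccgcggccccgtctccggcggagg
Trpc1: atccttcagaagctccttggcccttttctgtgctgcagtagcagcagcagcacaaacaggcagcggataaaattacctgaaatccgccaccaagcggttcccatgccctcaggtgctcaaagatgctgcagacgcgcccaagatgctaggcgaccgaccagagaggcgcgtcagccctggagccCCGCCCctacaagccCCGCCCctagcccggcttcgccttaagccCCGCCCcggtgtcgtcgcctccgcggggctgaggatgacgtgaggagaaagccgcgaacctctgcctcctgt
Trpv5: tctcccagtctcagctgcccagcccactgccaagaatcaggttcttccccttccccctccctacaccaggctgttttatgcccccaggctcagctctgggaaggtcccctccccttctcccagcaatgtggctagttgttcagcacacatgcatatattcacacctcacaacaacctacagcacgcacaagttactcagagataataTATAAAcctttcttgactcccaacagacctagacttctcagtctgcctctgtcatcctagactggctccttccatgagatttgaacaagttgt
Kcnh1: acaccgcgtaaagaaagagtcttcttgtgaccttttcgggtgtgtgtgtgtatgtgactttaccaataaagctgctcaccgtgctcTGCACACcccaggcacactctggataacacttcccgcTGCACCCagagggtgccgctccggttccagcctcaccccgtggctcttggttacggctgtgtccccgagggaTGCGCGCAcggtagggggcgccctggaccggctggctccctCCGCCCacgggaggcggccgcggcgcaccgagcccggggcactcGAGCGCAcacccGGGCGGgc

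The Stim1 window held 8 GC boxes and 38 CpG at 78.7% GC, the Stim2 window 3 GC boxes and 39 CpG at 76.7%, and the Trpc1 window 3 GC boxes at 63% GC. Over all promoters the medians were 52.7% GC and 7 CpG. GC boxes stood in 35.7% of all 32851 promoters in the table, in 44 of 100 windows of channel genes and in 6 of 12 windows of channel genes that passed the test. Trpm7 held 2 E boxes, which 7.15% of all promoters hold at least once, and Trpv5 held 1 TATA box, found in 13.6%. Metal response elements stood in 25.7% of all promoters, 29 of the 100 channel windows and 2 of the 12, namely Kcnh1 with 5 and Kcne4 with 1. The same search found 3 in Mt1 and 4 in Mt2. Overlapping matches on opposite strands counted separately, which raised the count of Kcnh1. These matches are a description of the letters. The table had an entry for 80 of the 98 genes and for 10 of the 13, and Cacna1a, Kcnt1 and Kcnj11 had none.

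Voltage-gated calcium channels consist of a pore-forming alpha1 subunit with alpha2delta, beta and gamma partners. Of 6 measured alpha1 genes 1 was higher, 1 lower and 4 did not pass, beside 6.45% of all genes higher and 5.8% lower. Cacna1c, the L-type pore that carries much of the calcium current of mouse beta cells, read 6.32, 6.40 and 6.52 in control and 5.87, 6.02 and 5.97 in cadmium cultures. The groups did not overlap, and the mean was at least 1.18-fold lower (change -0.46, SE 0.070, adjusted p = 0.0077). Cacna1a, the P/Q-type pore, moved the other way, with 5.65, 5.70 and 5.56 in control and 6.08, 6.02 and 6.00 in cadmium cultures (change 0.39, SE 0.057, adjusted p = 0.0061), still below the bound. Cacna1b, of the N-type, changed by 0.04 (interval -0.09 to 0.16) and Cacna1e, of the R-type, by 0.10 (interval -0.01 to 0.21). The second L-type gene of beta cells, Cacna1d, was not analysed here.

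None of the 8 measured partner subunits of the calcium channel passed the limma test, and 1 had an unadjusted p under 0.05. Of all 18572 genes 2276 passed and 5383 had such a p. Counts of 0 in so few genes do not show that a group was unchanged. Cacnb2, which brings the pore to the membrane, changed by 0.02 (interval -0.10 to 0.14), and Cacna2d1, the extracellular partner, by 0.0014 (interval -0.11 to 0.12). The release channels of the endoplasmic reticulum did not pass either, with 0 of 3 by limma and 0 at an unadjusted p under 0.05. Itpr2, a receptor for inositol trisphosphate, read 4.53 ± 0.02 in both groups. The changes of Ryr1, Ryr3 and Itpr2 lay between -0.0037 and 0.030.

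Potassium channel genes made up 52 of the members, of which 4 were higher, 1 was lower and 47 did not pass. Over all genes 6.45% were higher and 5.8% lower, and the count over the potassium channels was not tested. Kcnh2, the ERG channel that shapes repolarisation, read 6.41, 6.48 and 6.33 in control and 5.87, 5.96 and 6.01 in cadmium cultures. Its arrays did not overlap, and the mean was lower by at least 1.18-fold (change -0.47, SE 0.063, adjusted p = 0.0046). Kcnh1, the EAG channel of the same subfamily, went in the other direction, from 4.71, 4.73 and 4.69 to 4.98, 5.13 and 5.04 (change 0.34, SE 0.056, adjusted p = 0.0101). The third measured gene of that subfamily, Kcnh7, changed by -0.03 (adjusted p = 0.78).

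Kcnj11, the pore of the ATP-sensitive channel that couples glucose to the membrane potential, read 4.92, 4.75 and 4.83 in control and 5.20, 5.16 and 5.01 in cadmium cultures. The groups did not overlap, at a change of 0.29 (SE 0.071, adjusted p = 0.0410). This call was lost without control array 1, 2 or 3 or cadmium array 1 or 2, at adjusted p up to 0.1343. Its regulatory partner Abcc8, the sulfonylurea receptor, read 5.04 ± 0.05 and 5.13 ± 0.02 and did not pass (adjusted p = 0.2825). By limma 0 of the 3 measured partners of this channel passed and 1 had an unadjusted p under 0.05. Of all 18572 genes 2276 passed and 5383 had such a p. None of the means of Kcnj11 and these partners exceeded the bound.

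Kcnt1, a potassium channel opened by sodium, read 5.43, 5.40 and 5.25 against 5.71, 5.83 and 5.85, without overlap (change 0.44, SE 0.070, adjusted p = 0.0093). Kcne4, an auxiliary subunit that restrains KCNQ1, read 2.93, 2.31 and 2.66 in control and 3.23, 3.29 and 3.41 in cadmium cultures. This was the largest rise among the channel genes, at 0.68 (SE 0.147, adjusted p = 0.0276), from signals far below the bound and with the control arrays spread widely. The Kcne4 call was lost without control array 3, cadmium array 2 or cadmium array 3, at adjusted p up to 0.097. KCNQ1's own gene Kcnq1 changed by 0.05 (interval -0.07 to 0.16).

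The remaining potassium channels did not pass the test. Kcnn4, a calcium-activated channel, read 5.05 ± 0.10 and 5.27 ± 0.09, without overlap, at an adjusted p of 0.1034. Kcnk3, a background channel closed by acid, changed by 0.14 (interval -0.05 to 0.34). Of 5 channels of that group 0 passed and 2 had an unadjusted p under 0.05, beside 2276 and 5383 of all 18572 genes. Kcnj14, an inward rectifier and one of the 3 members with both means above the bound, read 6.32 ± 0.01 and 6.42 ± 0.07 (adjusted p = 0.2863). All 8 Kcna genes were measured, and their changes lay between -0.13 and 0.21. The antisense transcript Kcnq1ot1 read 2.08 ± 0.04 and 1.95 ± 0.07 (adjusted p = 0.177).

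Sodium channels start the action potentials of nerve and contribute to those of mouse beta cells. Of 10 measured genes, 7 pores and 3 beta subunits, 0 passed the limma test and 0 had an unadjusted p under 0.05, which 5383 of all 18572 genes had. The changes lay between -0.0035 and 0.18, with the mean signals from 1.85 to 4.05, all below the bound. Scn9a, a main sodium channel of mouse beta cells, read 2.44 ± 0.03 and 2.51 ± 0.05, and its change of 0.06 had an interval from -0.06 to 0.18. Scn3a changed by 0.04 (interval -0.07 to 0.16).

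**Figure D4:**
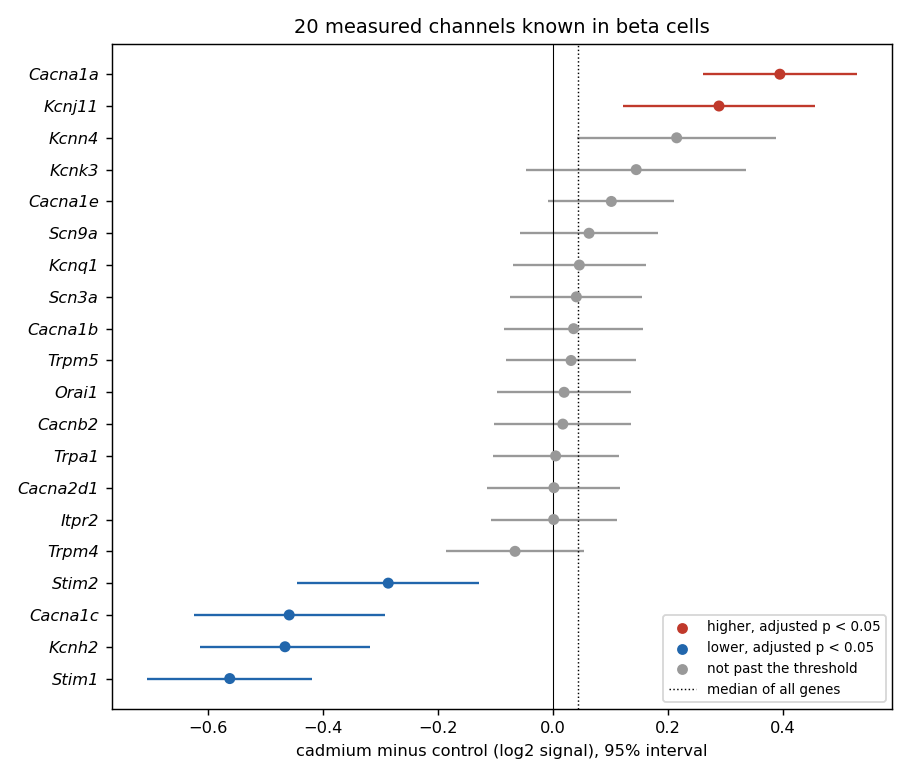
Change with cadmium (horizontal axis, log2 signal) with its 95% interval for the 20 measured genes of a list of 35 channels known in beta cells (vertical axis). Red and blue mark genes past the threshold, and the dotted line is the median of all genes. Cacna1a and Kcnj11 lie to the right, Stim1, Kcnh2, Cacna1c and Stim2 to the left, and the intervals of the others span 0 apart from Kcnn4.

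Seen over the list of 35 channels known in beta cells, 20 were measured, of which 2 were higher, 4 lower and 14 did not pass, beside 6.45% of all genes higher and 5.8% lower. Their median change was 0.025 against 0.044 for all genes. The list was drawn up with earlier results of these data known, and its counts support nothing further. Genes of the list that were not analysed here include Cacna1d, Cacna1g, Cacna1h, Cacnb3, Kcnma1, Kcnk16, Trpm2, Trpm3, Trpv1, Ryr2, Itpr1 and Itpr3, so several release channels known in beta cells are outside these counts.

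Genes that work with the channels were counted in lists, to be read beside the 12.3% of all genes that passed the test. Of 12 measured regulators of the endoplasmic reticulum store 2 were higher and 1 lower: Fkbp1a, which holds the ryanodine receptor closed, rose 1.32-fold from 6.30 ± 0.04 to 6.71 ± 0.02 (adjusted p = 0.0032), and Jph3, which ties the store to the cell membrane, rose from 4.44 ± 0.05 to 4.65 ± 0.04 (adjusted p = 0.0452). Calu, a calcium-binding protein of the secretory pathway, fell 1.21-fold from 7.84 ± 0.03 to 7.56 ± 0.06 (adjusted p = 0.0177). Of 3 measured genes of mitochondrial calcium uptake, Micu3, a regulatory partner of the uniporter, fell from 4.80 ± 0.10 to 4.07 ± 0.12 (adjusted p = 0.0025). The Jph3 call was lost with centred arrays (adjusted p = 0.0945) and without any one of the 6 arrays (0.0900 to 0.1172). The Calu call was lost with a trended robust variance (adjusted p = 0.0503) and without control array 1 (0.0536), control array 2 (0.0703) or cadmium array 2 (0.0611). None of 9 calcium pumps and exchangers passed the limma test, and 1 had an unadjusted p under 0.05, which 5383 of all 18572 genes had.

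Downstream of calcium entry, 1 of 7 measured genes of calmodulin, its kinases and calcineurin fell: Nfatc3, a transcription factor that calcineurin activates, from 5.64 ± 0.04 to 5.30 ± 0.03 (adjusted p = 0.0069). Among 13 measured regulators of channel traffic and gating 2 were higher and 2 lower, beside 6.45% and 5.8% of all genes. Rgs2, which quickens the turn-off of G proteins, changed by 0.37 (adjusted p = 0.0122) and Dpp6, a partner of A-type potassium channels, by 0.20 (adjusted p = 0.0474). Nedd4, a ubiquitin ligase that removes channels from the membrane, fell by at least 1.11-fold (adjusted p = 0.0154), and Akap9, a scaffold of the KCNQ1 channel, changed by -0.37 (adjusted p = 0.0090). The Dpp6 call was lost with centred arrays (adjusted p = 0.1124) and without any one of the 6 arrays (0.0531 to 0.1373). That of Nedd4 was lost without control array 2 (0.0502), cadmium array 2 (0.0586) or cadmium array 3 (0.0522), and that of Rgs2 without cadmium array 2 (0.0511).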

How the data were processed

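Total RNA of 6 cultures was labelled with biotin and read on 1 array each, per the labels. The deposited values are log2 signals, 1 per transcript cluster and array. The base of the logarithm is inferred from their range and the folds hold only for base 2. For software, background correction and normalization, the sources used here give nothing. The table had 46478 rows, 39746 of them transcript clusters and 6732 controls. Gene symbols came from the platform annotation: 18801 clusters had 1 symbol, 1344 several and 19601 none. The brightest cluster stood for each of 18572 genes, 159 of which had more than 1. No member had more than 1, and 4 probes that pair a channel symbol with others were left out. The number of value columns of no sample was 0.

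The 2 groups were compared gene by gene in a two-sided test (limma 3.58.1, R 4.3.3; lmFit, eBayes) with no covariate. Benjamini-Hochberg adjustment ran over all 18572 genes at a threshold of 0.05. The fit was checked on simulated data. Intervals are 95% intervals from the same fit. Figures and counts used Python 3.11.15 with pandas 2.3.3 and matplotlib 3.10.9. Groups came from the sample titles. Members and lists were chosen with earlier results of these data known, and no test over a list was run. Named with values were members past the threshold, channels of the beta cell list, the 5 members of highest signal, and genes of the other lists past the threshold, at most 4 a list. Ryr1, Ryr3, Kcnh7, Kcnq1ot1, Orai2, Orai3, Ins2, Abcc8, Kdr, Ptprc and the ranges of some families fall outside this rule and were chosen after their values were seen. Alternatives were centred arrays, quantile normalization, a filter at the median level, the mean of probes, a trended robust variance, array weights, a replicate block, a threshold of 0.01 and each array left out.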

Additional observations from a re-analysis of the deposited data

How the results depend on the processing

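The direction of the 13 channel genes that passed the test was kept in the alternatives run for each, which were 14, except that Kcne4 fell under the filter on level, and 8 of the 13 calls were kept in each. Kcnh1 was lost only at a threshold of 0.01. Kcne4 and Stim2 were lost at that threshold and with single arrays left out, and Kcnj11 and Trpv6 also with centred arrays, quantile normalization and the replicate block. At a threshold of 0.01, 3 channel genes were higher and 5 lower, and 859 of all genes passed in place of 2276.

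Leaving out each array in turn gave 4 to 7 higher and 5 to 6 lower channel genes. Without control array 3 or cadmium array 2, 4 were higher. Over all genes the count ran from 1134 to 2352, and fell to 1173 without control array 1, 1141 without control array 2, 1134 without cadmium array 2 and 1165 without cadmium array 3.

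The labels do not say if the replicate numbers of the titles pair the cultures. Same-numbered arrays had correlations of -0.108, 0.053 and -0.111 between their deviations from the group means, and 0 of 6 arrays correlated best with their own number. These values, from deviations within so few arrays, cannot show whether same-numbered cultures shared a day or passage. With the replicate block, 1372 genes passed, among them 5 higher and 6 lower channel genes, and Jph3, Calu, Dpp6, Nedd4, Snap25, Cela2a and Acta1 did not pass. The source names carry a second numbering that does not follow the titles, and a block on it was not tested.

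Signals near background limit these results: 90 of 98 channel genes had no group mean above the bound, as had 16142 of all 18572 genes. The bound comes from other probes than the genes' own. The arrays number 3 a group, and the normalization before deposit is unknown.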

Other observations

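Cation channels outside the symbol rule were counted from a list of 46, of which 29 were measured. None was higher and 1 was lower, beside 6.45% of all genes higher and 5.8% lower. The lower gene, Tmem175, a potassium channel of the lysosome, went from 4.93 ± 0.05 to 4.60 ± 0.08 (limma adjusted p = 0.0145), below the background bound. This call was lost without control array 1 (0.0563), control array 2 (0.0628), cadmium array 2 (0.0599) or cadmium array 3 (0.0606). The cyclic nucleotide-gated, HCN, P2X, mucolipin, two-pore and epithelial sodium channels of that list did not pass the test. Piezo1, a mechanosensitive channel of the same list chosen after its values were seen, did not pass either. It read 6.35 ± 0.12 and 6.30 ± 0.08 in control and cadmium cultures, above the bound in both.

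In all, 4 probes paired a channel symbol with further symbols and were not counted. The probe of Trpc2, which it shares with the overlapping gene Xndc1, read 4.21 ± 0.03 in control and 4.40 ± 0.04 in cadmium cultures, and its arrays did not overlap between groups. The arrays of the groups overlapped for the probes of Cacng8, Kcnd3os and Trpc5os.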
